A study of Mus musculus with 24 samples.

Results

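The 9 genes described here are markers by which microglia, the resident macrophages of the brain, are commonly recognised: Cx3cr1, P2ry12, Csf1r, Trem2, Tmem119, Aif1, C1qa, C1qb and C1qc. A probe set (the group of array probes that reports 1 transcript) was used only where the array annotation paired it with exactly 1 of these symbols, and where several qualified, the brightest on average across all 24 arrays stood for the gene. All 9 genes were found among the 18193 genes tested. The animals were mice expressing ribosomal protein L10a fused to eGFP under control of Aldh1l1, an astrocyte gene, and every group carried this transgene. Cerebral cortex was taken from 6 spontaneously waking mice, 6 sleep-deprived mice (kept awake for 4 h in the light phase by exposure to objects) and 6 sleeping mice. Waking mice were killed at about 3 to 5 am, when they had been up for over 1 h and for at least 70% of the previous 6 to 7 h, and sleeping mice at about 3 to 5 pm, when they had slept for over 45 min and for at least 75% of that window, so that waking and sleep also differ in time of day. Immunoprecipitation of the tagged ribosomes gave the bound fraction, hybridised from each of the 18 animals singly, and the supernatant gave the unbound fraction, hybridised as 6 pools of 3 animals each, 2 pools per state (animals 1 to 3 and animals 4 to 6). Bound RNA was purified with a Nanoprep and unbound RNA with an RNeasy Mini protocol, so fraction, purification and pooling cannot be told apart.

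Microglia are not the cells in which the Aldh1l1 promoter is active, so transcripts of these 9 genes mark a cell type other than the one the pull-down was aimed at. Cx3cr1 is the receptor for the neuronal chemokine fractalkine (Cx3cl1), P2ry12 is a receptor for adenine nucleotides that directs microglial processes, Csf1r is the receptor for Csf1 on which microglial survival depends, and Trem2 is a lipid-sensing receptor that signals through the adaptor Tyrobp. Tmem119 is a membrane protein found on microglia but on few other brain macrophages, Aif1 (also called Iba1) is an actin-binding cytoplasmic protein, and C1qa, C1qb and C1qc encode the chains of C1q, which starts the classical complement cascade and tags synapses for removal.

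C1qb, C1qc and C1qa lie beside each other on chromosome 4 with no other gene between them in the RefSeq table, and their products are parts of 1 protein. The bases before the start sites of C1qb, C1qc and P2ry12 are shown. Of the 6 windows available for the 9 genes, these 3 hold the letters AGGAAGT, a core that the myeloid factor PU.1 is known to bind. The letters read as ACTTCCT where the match lies on the opposite strand. Each line gives the 250 bases before the annotated start of transcription, 5′ to 3′ on the strand of the gene, from RefSeq (GRCm38.p6), with the matching letters in capitals. The C1qb window is chr4:136886201-136886450, the C1qc window chr4:136892915-136893164 and the P2ry12 window chr3:59262986-59263235, all read on the minus strand.
C1qb: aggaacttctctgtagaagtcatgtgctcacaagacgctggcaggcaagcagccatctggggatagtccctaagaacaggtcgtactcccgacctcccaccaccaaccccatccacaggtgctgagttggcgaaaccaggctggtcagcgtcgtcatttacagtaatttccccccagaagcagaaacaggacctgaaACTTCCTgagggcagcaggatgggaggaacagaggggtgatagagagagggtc
C1qc: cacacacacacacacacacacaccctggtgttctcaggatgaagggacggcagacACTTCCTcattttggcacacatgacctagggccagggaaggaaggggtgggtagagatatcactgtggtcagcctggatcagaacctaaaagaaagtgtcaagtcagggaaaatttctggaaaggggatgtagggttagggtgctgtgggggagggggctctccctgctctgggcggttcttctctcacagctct
P2ry12: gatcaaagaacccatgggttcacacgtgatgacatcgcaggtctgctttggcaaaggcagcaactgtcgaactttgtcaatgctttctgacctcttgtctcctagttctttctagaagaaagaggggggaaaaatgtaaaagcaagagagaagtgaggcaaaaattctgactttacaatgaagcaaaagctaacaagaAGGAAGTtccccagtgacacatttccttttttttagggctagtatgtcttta
The match ended 47 bases before the start of C1qb, 189 bases before that of C1qc and 46 bases before that of P2ry12. Both strands were searched, the motif was chosen with these sequences in view, and 7.69% of all 32851 windows of this length (2525) held it, while the Aif1, Cx3cr1 and Trem2 windows did not. A match is only a description of the letters in the window, and no link to the levels of these genes was tested.

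All levels below are log2 RMA values, the scale on which the deposited table is written, and all differences are differences of these log2 values. The arrays of any 2 states or fractions were offset from each other across all genes, so each difference is given relative to the median of all 18193 genes in the same comparison, followed by its standard error (SE). That median was 0.16 for bound minus unbound. In the bound fraction it was 0.09 for waking minus sleep, 0.11 for deprivation minus sleep and 0.02 for deprivation minus waking, in the unbound fraction 0.30, 0.18 and -0.12 in the same order, and -0.22 and -0.06 for the bound minus unbound difference in the effects of waking and of deprivation. Adjusted p comes from limma with Benjamini-Hochberg adjustment over all genes, on the differences as fitted, and 0.05 was the threshold. Exactly tied values occurred in 48 of 48 pairs of arrays from the same group and in 0 of 228 pairs from different groups, which would arise if RMA had been run separately for each group. Group and RMA run then cannot be told apart, and adjusted p, which rests on the spread within groups, does not cover an offset between runs. The pull-down was checked on Aldh1l1, 13.2-fold higher in the bound than in the unbound fraction (3.72 ± 0.11, adjusted p = 7.44e-18), and on Rpl10a, 2.24-fold higher (1.17 ± 0.18, adjusted p = 1.5e-06). All 12 of 12 astrocyte markers were higher in the bound fraction (median difference 3.06) and 11 of 12 neuron markers lower (median -2.18).

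Signals of the 9 genes were modest in both fractions. In the bound fraction their mean levels lay above those of between 35.6% (Cx3cr1) and 58.4% (C1qb) of the genes tested, and in the unbound fraction above between 40.4% (Trem2) and 77.6% (Csf1r). The median of all probe sets was 5.79 in the bound and 5.64 in the unbound arrays, and Cx3cr1 in the bound fraction was the 1 member with a mean below it. No detection calls were used here, so a low level is not a statement that a transcript was absent.

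On the levels as deposited, the group with the highest mean was an unbound one for 6 of the 9 genes and a bound one for Tmem119, C1qc and Trem2. Unbound waking led for Cx3cr1, P2ry12, C1qa, C1qb and Aif1, and unbound sleep deprivation for Csf1r. Relative to the median gene, however, C1qa (-0.16) and Aif1 (-0.16) had negative differences for unbound waking minus unbound sleep, which did not pass, so that unbound waking does not lead for them on that scale. Bound waking led for Tmem119, and bound sleep deprivation for C1qc and for Trem2. Relative to the median gene, the leads for Tmem119 and Trem2 do not hold either. For Tmem119, bound minus unbound waking was 0.03, and unbound deprivation minus unbound waking was 0.09, which did not pass. For Trem2, bound deprivation minus bound sleep was 0.18, which did not pass, and bound minus unbound sleep was -0.22. In the order of the 6 group means, most neighbours had overlapping ranges. The steps without overlap lay between unbound waking and unbound sleep for Cx3cr1, C1qa and C1qb, between unbound sleep deprivation and unbound sleep for Tmem119, between unbound sleep and bound waking for Csf1r, between unbound waking and unbound sleep deprivation for C1qc and Trem2, and between unbound sleep deprivation and bound sleep deprivation for Aif1. The step for C1qa was a near tie, with the nearest pools at 6.6137 in waking and 6.6133 in sleep. P2ry12 had no such step. With 2 pools per unbound group, ranges there are narrow by construction.

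**Figure D1:**
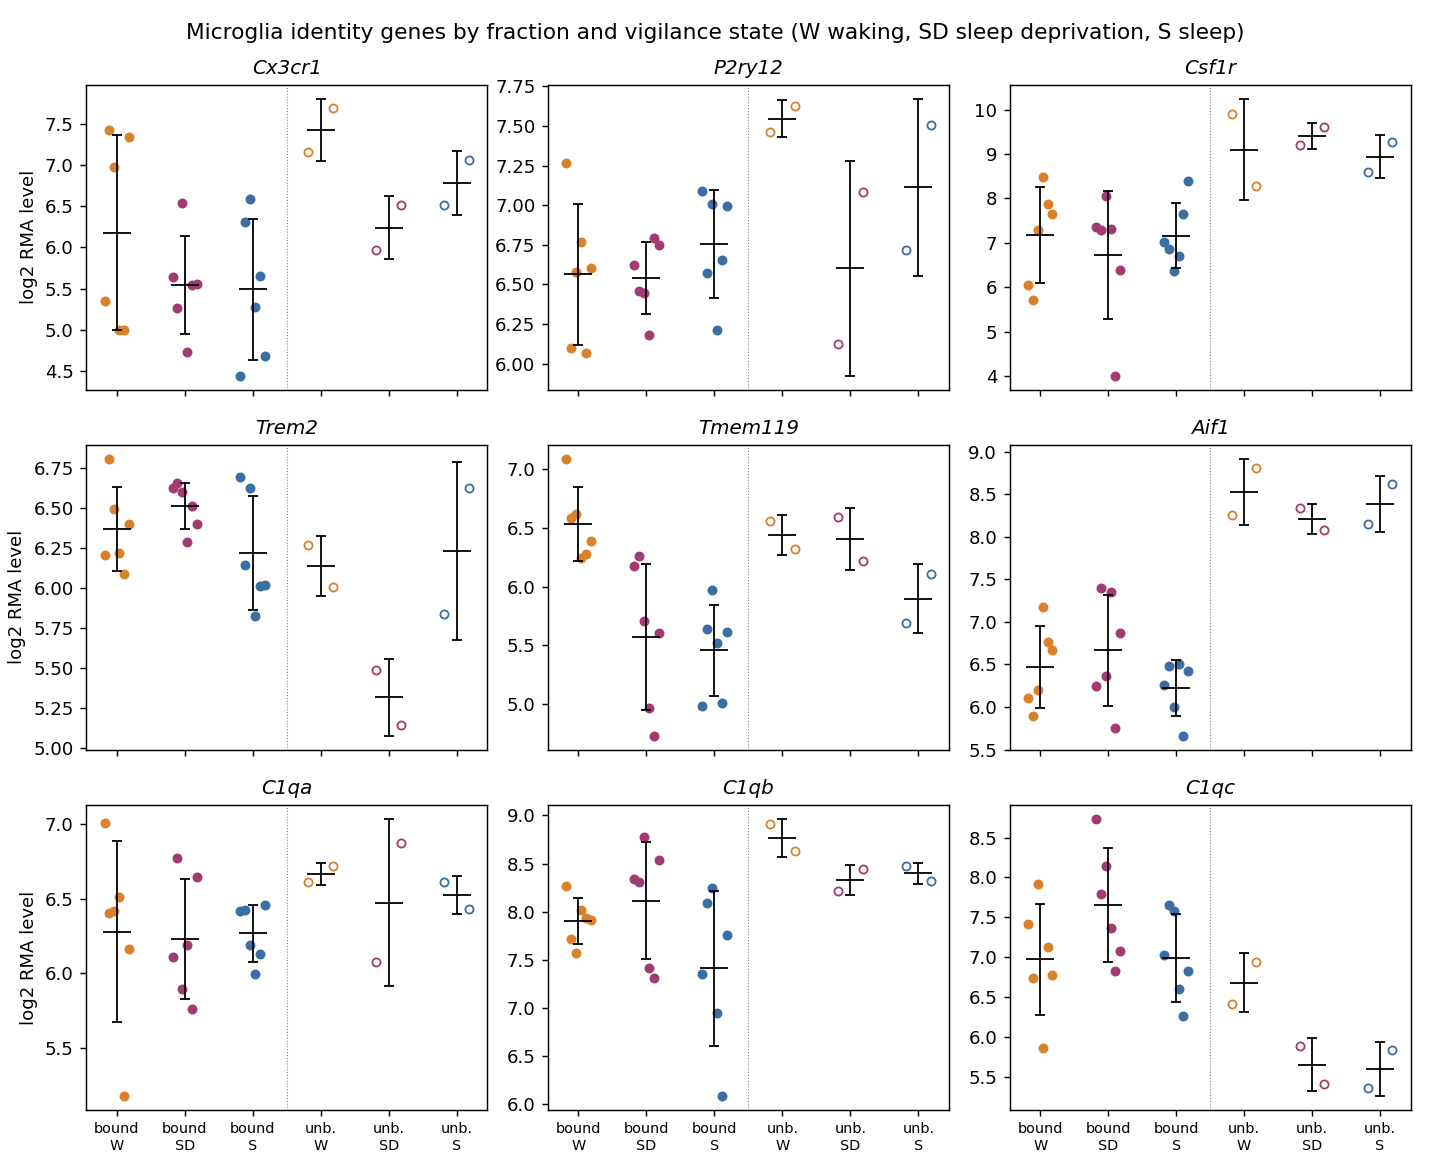
Log2 RMA level of each gene (vertical axis, 1 panel per gene, scales differ) in the 6 groups, bound arrays as filled and unbound pools as open points, with the mean (wide bar) and SD. All 18 bound arrays lie below all 6 unbound pools for Aif1, and the 6 bound waking arrays lie above the 6 bound sleep arrays for Tmem119.

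The comparison of the fractions asks how far the pull-down depleted microglial transcripts. Of the 9 genes, 5 were lower in the bound than in the unbound fraction (Aif1, Csf1r, Cx3cr1, C1qb and P2ry12), 2 were higher (C1qc and Trem2) and 2 did not pass the test (Tmem119 and C1qa). Over all genes tested, 69.4% passed, 42.2% as higher and 27.2% as lower, so that passing at all is the rule in this comparison. The split depended on scaling, with 7672 genes higher and 4955 lower as deposited, 6111 and 6287 after repeated quantile normalisation and 5049 and 7662 with arrays centred on their medians. Of the 9 genes, 7 were lower and 1 higher under both other scalings, as Tmem119 (adjusted p = 0.0029 and 0.00238) and C1qa (adjusted p = 0.00857 and 0.0066) passed as lower and Trem2 no longer passed. The median difference of the 9 genes was -0.63, against 0 for all genes by construction.

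Aif1 and Csf1r had the widest gaps between the fractions. Aif1 ranged from 5.66 to 7.39 with a median of 6.39 in the 18 bound arrays, against 8.25 and 8.80 (waking), 8.33 and 8.08 (sleep deprivation) and 8.15 and 8.62 (sleep) in the unbound pools. Every bound array lay below every pool, a pattern found in 10.1% of all genes. Aif1 was 4.24-fold lower (-2.08 ± 0.21, adjusted p = 7.02e-08), at 6.45 ± 0.51 in bound (SD, n = 18) and 8.37 ± 0.28 in unbound samples (SD, n = 6), and it was lower in waking (-2.12), sleep deprivation (-1.76) and sleep (-2.37) taken alone.

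Csf1r ranged from 4.01 to 8.48 with a median of 7.29 in the bound arrays, against 9.91 and 8.29 (waking), 9.20 and 9.61 (sleep deprivation) and 8.59 and 9.28 (sleep) in the pools. No bound array reached the unbound mean, but the 2 fractions overlapped at 1 waking pool. The difference was 4.87-fold (-2.28 ± 0.47, adjusted p = 0.000409), at 7.02 ± 1.08 in bound (SD, n = 18) and 9.15 ± 0.61 in unbound samples (SD, n = 6). This size belongs to 1 probe set. The 2 other probe sets of Csf1r were dimmer, at 5.71 in bound and 6.16 in unbound samples for the first and 5.65 and 5.85 for the second, and with every probe set tested they gave -0.52 ± 0.23 (adjusted p = 0.0913) and -0.27 ± 0.18 (adjusted p = 0.334).

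Cx3cr1 and P2ry12 were lower by smaller amounts. Cx3cr1 ranged from 4.45 to 7.43 (median 5.55) in the bound arrays, against 7.16 and 7.69 (waking), 5.97 and 6.51 (sleep deprivation) and 6.51 and 7.06 (sleep) in the pools, and 3 of 18 bound arrays lay above the unbound mean. It was 2.36-fold lower (-1.24 ± 0.37, adjusted p = 0.0139), whereas its other, dimmer probe set (4.99 in bound and 5.10 in unbound samples) gave -0.18 ± 0.20 (adjusted p = 0.653). P2ry12 ranged from 6.07 to 7.26 (median 6.61) in the bound arrays, against 7.46 and 7.63 (waking), 6.12 and 7.08 (sleep deprivation) and 6.72 and 7.51 (sleep) in the pools. The difference was 1.54-fold (-0.63 ± 0.17, adjusted p = 0.0210). It did not pass when each pool was paired with the mean of its 3 bound arrays (adjusted p = 0.0778), nor without the second pool of sleep (-0.49, adjusted p = 0.122), of waking (-0.59, adjusted p = 0.0572) or of sleep deprivation (-0.46, adjusted p = 0.144).

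Of the 3 chains of C1q, C1qb passed as lower and C1qc as higher, while C1qa had a negative difference that did not pass. C1qb ranged from 6.09 to 8.78 (median 7.93) in the bound arrays, against 8.91 and 8.63 (waking), 8.22 and 8.44 (sleep deprivation) and 8.48 and 8.32 (sleep) in the pools, a 1.80-fold lower level (-0.85 ± 0.25, adjusted p = 0.0168). Its 2 other probe sets gave -0.59 ± 0.21 (adjusted p = 0.0359) and -0.67 ± 0.30 (adjusted p = 0.0899), and without the first waking pool its adjusted p was 0.0502. C1qc ranged from 5.86 to 8.73 (median 7.10) in the bound arrays, against 6.42 and 6.94 (waking), 5.88 and 5.41 (sleep deprivation) and 5.36 and 5.84 (sleep) in the pools. C1qc was therefore 2.10-fold higher in the bound fraction (1.07 ± 0.27, adjusted p = 0.000425), with 17 of 18 bound arrays above the unbound mean. Within states its difference was 0.23 in waking, 1.79 in sleep deprivation and 1.18 in sleep. C1qa ranged from 5.18 to 7.00 (median 6.30) in the bound arrays, against 6.61 and 6.72 (waking), 6.08 and 6.87 (sleep deprivation) and 6.61 and 6.43 (sleep) in the pools. C1qa, at 6.26 ± 0.41 in bound (SD, n = 18) and 6.55 ± 0.27 in unbound samples (SD, n = 6), differed by -0.46 ± 0.19 (adjusted p = 0.170). C1qa and C1qc had 1 probe set each, so their opposite signs were not checked on further probes.

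Trem2 ranged from 5.83 to 6.81 (median 6.40) in the bound arrays, against 6.27 and 6.00 (waking), 5.49 and 5.15 (sleep deprivation) and 5.84 and 6.63 (sleep) in the pools. The difference was small, 1.24-fold (0.31 ± 0.13, adjusted p = 0.00379), and 17 of 18 bound arrays lay above the unbound mean. Within states it was 0.17 in waking, 0.98 in sleep deprivation and -0.22 in sleep. In sleep, 2 of 6 bound arrays lay above the mean of the sleep pools. The Trem2 difference over all states did not pass with quantile normalisation repeated over the arrays (0.21, adjusted p = 0.158), with arrays centred on their medians (adjusted p = 0.318) or with the 6 pairs of pool and bound mean (adjusted p = 0.0647). Its other probe set was at 4.57 in bound and 4.20 in unbound samples (0.29 ± 0.10, adjusted p = 0.00197). Tmem119 ranged from 4.73 to 7.09 (median 5.84) in the bound arrays, against 6.56 and 6.32 (waking), 6.59 and 6.22 (sleep deprivation) and 5.69 and 6.10 (sleep) in the pools, with 6 of 18 bound arrays above the unbound mean. Tmem119, at 5.85 ± 0.66 in bound (SD, n = 18) and 6.25 ± 0.33 in unbound samples (SD, n = 6), differed by -0.55 ± 0.19 (adjusted p = 0.0765). Because each pool holds animals whose bound fraction was also measured, the fractions are paired, and with the pool as a block Tmem119 passed (adjusted p = 0.0271), as it did with the 6 pairs (adjusted p = 0.0477). The Tmem119 difference was 0.03 in waking, -1.05 in sleep deprivation and -0.65 in sleep.

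**Figure D2:**
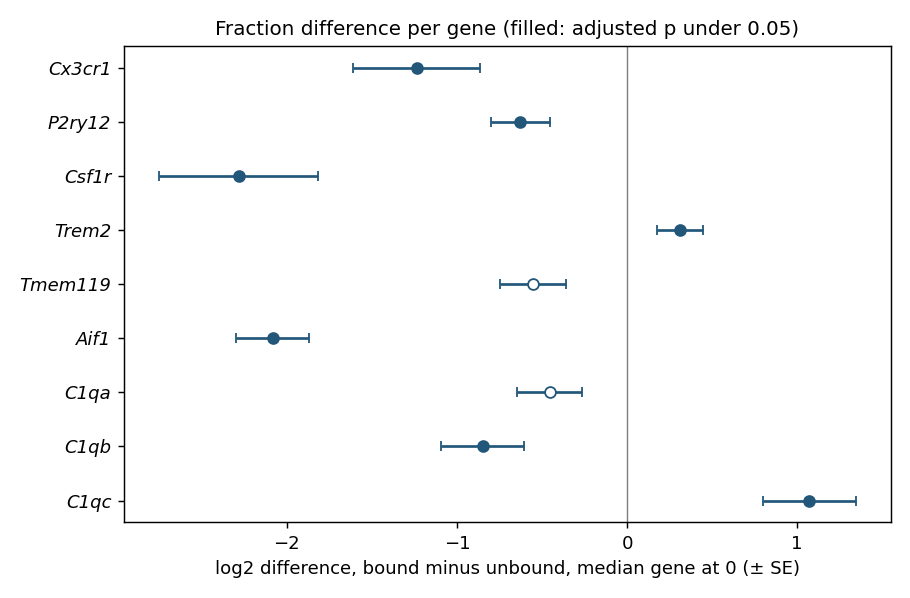
Log2 difference of each gene, bound minus unbound, relative to the median gene (horizontal axis, points with SE, filled where adjusted p was under 0.05). Csf1r (-2.28) and Aif1 (-2.08) lie farthest to the left, and C1qc (1.07) and Trem2 (0.31) lie to the right of 0.

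Other microglial genes were chosen as a list of 30, of which 27 were measured. Of the 27, 14 lay below the median probe set in the bound and 9 in the unbound arrays. In the bound fraction 15 of the 27 were lower and 2 higher, against 27.2% and 42.2% of all genes, with a median difference of -0.68. Among them were Ctss, a lysosomal protease (6.74 in bound and 9.11 in unbound samples, -2.53 ± 0.24), Laptm5, a lysosomal membrane protein (7.23 and 9.58, -2.51 ± 0.32), and Tyrobp, the adaptor of Trem2 (6.95 and 9.04, -2.25 ± 0.19). Over all states together, Tyrobp and its receptor Trem2 thus had differences of opposite sign, although that of Trem2 was negative in sleep taken alone (-0.22). Of 14 ligands and partners of the 9 proteins, a list that also holds Tyrobp, 7 were higher and 3 lower, against 42.2% and 27.2% of all genes. The lipid carrier Apoe, a ligand of Trem2, was at 12.74 in bound and 7.64 in unbound samples (4.94 ± 0.41), and Cx3cl1, the ligand of Cx3cr1, at 8.43 and 9.78 (-1.51 ± 0.37). Of 12 measured complement genes other than C1q, 4 were higher and 2 lower, against the same shares of all genes. In either fraction 8 of the 12 lay below the median probe set. Among the higher was Serping1, which encodes the C1 inhibitor (7.46 and 5.82, 1.48 ± 0.19). Among the lower was Cd55, which accelerates the decay of C3 convertases (5.68 and 7.06, -1.54 ± 0.43).

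Of 20 measured genes associated with microglial activation, 13 were higher in the bound fraction and 1 lower (median 0.45), against 42.2% and 27.2% of all genes. The receptor tyrosine kinase Axl was at 10.38 in bound and 6.04 in unbound samples (4.17 ± 0.10), the tetraspanin Cd9 at 9.49 and 6.67 (2.66 ± 0.17) and the lysosomal protease Ctsd at 11.02 and 9.08 (1.78 ± 0.20), while the lipase Lpl was at 5.37 and 7.04 (-1.83 ± 0.17). These genes are also transcribed in cells other than microglia. Of the 20, 13 lay below the median probe set in the bound and 14 in the unbound arrays. Markers of border macrophages, which share many microglial genes, were dim, with 10 of 10 below the median probe set in the bound and 9 of 10 in the unbound arrays, and 1 of the 10 was higher in the bound fraction (Clec10a, a lectin, at 5.67 in bound and 3.97 in unbound samples). Of 14 measured blood leukocyte markers, 12 lay below the median probe set in the bound and 14 in the unbound arrays. In the bound fraction 5 were higher and 3 lower, against 42.2% and 27.2% of all genes. The part of these cells in the differences of the 9 genes was not tested.

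The state comparisons ask which transcripts differ between wakefulness and sleep. In the bound fraction Tmem119 was the 1 gene of the 9 to change with spontaneous waking. Its levels were 6.24, 6.49 and 7.09 in the 6 waking arrays (lowest, median, highest) and 4.99, 5.57 and 5.97 in the 6 sleep arrays, so the groups did not overlap, as was so for 6.01% of all genes in this direction. Tmem119 was 1.98-fold higher in waking (0.99 ± 0.25, adjusted p = 0.0088), at 6.53 ± 0.31 in waking and 5.46 ± 0.39 in sleep (SD, n = 6 each). Over all genes 11.2% passed, 9.07% as higher, so that 1 of 9 is near that background share (1650 genes higher and 389 lower as deposited, 804 and 635 after repeated quantile normalisation). The difference was 1.14 among animals 1 to 3 and 0.82 among animals 4 to 6. In bulk RNA, a difference between states in the number of cells of a type and one in RNA per cell cannot be told apart.

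Some markers of other cell types also passed as higher in waking in these bound arrays, where 9.07% of all genes did. The astrocyte list had 2 of 12 higher and the neuron list 0 of 12. List medians were -0.02 (astrocyte), -0.11 (neuron), -0.01 (oligodendrocyte) and 0.35 (endothelial). Among 11 measured oligodendrocyte genes 2 rose, Ugt8a, an enzyme of myelin galactolipid synthesis (6.31 in waking and 5.07 in sleep, 1.14 ± 0.25), and Ermn, a cytoskeletal protein of myelinating cells (8.51 and 7.37, 1.06 ± 0.26). Among 9 endothelial genes 2 rose, Esam (5.06 in waking and 3.94 in sleep, 1.03 ± 0.21) and the tight junction gene Cldn5 (5.92 and 5.16, 0.67 ± 0.15). All 9 endothelial genes lay on average below the median probe set of the bound arrays. The next values are levels as deposited, with the waking offset of 0.09 not taken off. The mean level of the endothelial list ran from 4.70 to 5.18 in waking and from 4.58 to 4.67 in sleep, without overlap, while that of the 9 microglia genes ran from 6.48 to 6.89 and from 6.13 to 6.73, and that of border macrophage markers from 4.97 to 5.33 and from 4.80 to 5.19. The part of these lists in the Tmem119 difference was not tested.

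The other 8 genes did not pass for waking against sleep in the bound fraction. The 4 largest differences among them were 0.60 ± 0.49 for Cx3cr1 (6.18 ± 1.18 in waking and 5.49 ± 0.86 in sleep, SD, n = 6 each, adjusted p = 0.456), 0.40 ± 0.32 for C1qb (7.90 ± 0.24 and 7.41 ± 0.81, adjusted p = 0.417), -0.28 ± 0.20 for P2ry12 (6.56 ± 0.45 and 6.75 ± 0.34, adjusted p = 0.651) and 0.16 ± 0.28 for Aif1 (6.47 ± 0.48 and 6.22 ± 0.33, adjusted p = 0.689). Cx3cr1 in waking fell into 3 arrays between 6.98 and 7.43 and 3 between 5.00 and 5.35, a spread wider than the difference between the states. Csf1r, C1qa, C1qc and Trem2 lay between -0.11 and 0.06. Among the 27 other microglial genes 5 rose and 1 fell, where 1650 of all 18193 genes rose and 389 fell. Those that rose included P2ry6, a receptor for uridine nucleotides (5.81 in waking and 4.48 in sleep, 1.24 ± 0.32, adjusted p = 0.00976), the integrin chain Itgb2 (4.55 and 3.63, 0.83 ± 0.22, adjusted p = 0.00928) and the Fc receptor-like gene Fcrls (6.87 and 6.03, 0.75 ± 0.26, adjusted p = 0.0457). Olfml3, a secreted protein, fell (7.37 and 8.02, -0.74 ± 0.19, adjusted p = 0.0372).

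After sleep deprivation 0 of the 9 genes passed against sleep in the bound fraction by limma, where 14.3% of all genes did. An unadjusted p under 0.05 was found for 4796 of all 18193 genes and for 1 of the 9. That gene was C1qb, with levels of 7.31, 8.33 and 8.78 in deprivation and 6.09, 7.55 and 8.25 in sleep (lowest, median, highest). C1qb differed by 0.59 ± 0.32 (adjusted p = 0.174) and C1qc by 0.55 ± 0.35 (7.66 ± 0.71 in deprivation and 6.99 ± 0.55 in sleep, SD, n = 6 each, adjusted p = 0.250). Trem2 lay above the sleep mean in 6 of 6 deprived arrays, with a difference of 0.18 ± 0.16 (6.51 ± 0.15 and 6.22 ± 0.36, adjusted p = 0.248). Csf1r differed by -0.54 ± 0.60 (adjusted p = 0.743), at 4.01, 7.30 and 8.06 in deprivation and 6.37, 6.93 and 8.39 in sleep, and its difference was 0.72 among animals 1 to 3 and -1.81 among animals 4 to 6, which include the array at 4.01. Tmem119 differed by 0.00 ± 0.25 (adjusted p = 0.852).

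Of the other microglial genes, 3 of 27 rose and 1 fell after deprivation, where 2230 of all 18193 genes rose and 367 fell. P2ry6 was at 5.78 in deprivation and 4.48 in sleep (1.18 ± 0.32, adjusted p = 0.00927), and the complement receptor chain Itgam at 3.63 and 2.84 (0.68 ± 0.11, adjusted p = 0.000115). Olfml3 was at 7.30 and 8.02 (-0.83 ± 0.19, adjusted p = 0.0176). The activation list, with a median difference of -0.04, had 6 of 20 members higher and 2 lower, among them the antigen-presentation gene H2-Ab1 (5.76 in deprivation and 4.29 in sleep, 1.35 ± 0.28) and Lpl (5.17 and 6.10, -1.04 ± 0.22). P2ry6, Itgam and H2-Ab1 lay below the median probe set of the bound arrays, 5.79, in both states, as did Itgb2 and Ptprc in the states in which they are compared.

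Against spontaneous waking, Tmem119 was the 1 gene of the 9 that passed, and it was lower after deprivation. Deprivation took place in the light phase and waking mice were killed in the dark phase, so state and time of day cannot be told apart here either. Its levels were 4.73, 5.65 and 6.26 in deprived and 6.24, 6.49 and 7.09 in waking animals, and the ranges touched at 1 deprived array. The difference was -0.98 ± 0.25 (adjusted p = 0.0259), with 0 of 6 deprived arrays above the waking mean, -0.74 among animals 1 to 3 and -1.23 among animals 4 to 6. Over all genes 6.84% passed and 2.67% were lower, against 1 of 9 here. This call was lost when dim genes were left out (adjusted p = 0.106), without the first waking array (-0.87, adjusted p = 0.0628) and without deprived array 4 (-0.86, adjusted p = 0.0609) or deprived array 5 (-0.81, adjusted p = 0.0574). It shares its waking arrays with the comparison of waking and sleep, so the 2 Tmem119 results are not independent. Of the other microglial genes 1 of 27 passed, Ptprc, the leukocyte phosphatase CD45, at 3.52 in deprivation and 4.21 in waking (-0.71 ± 0.11, adjusted p = 0.00051).

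**Figure D3:**
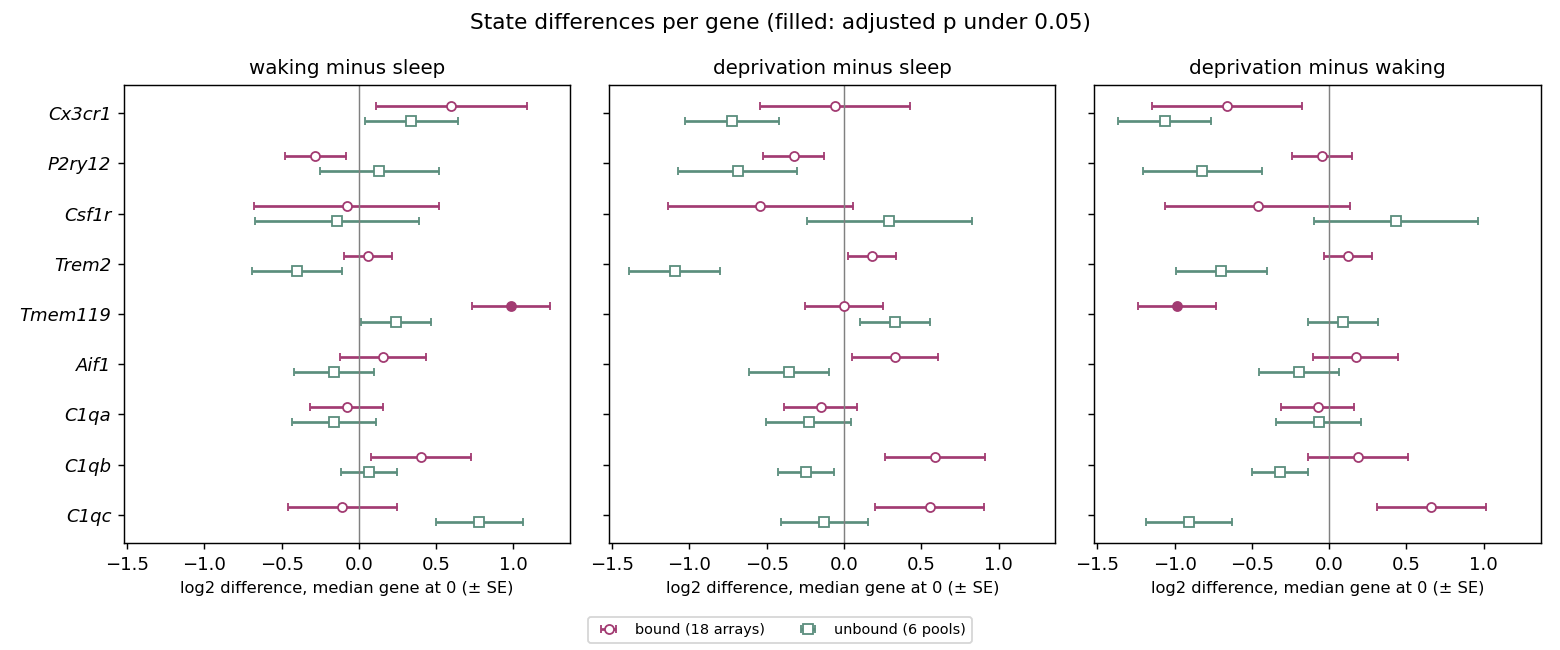
Log2 state differences of each gene relative to the median gene (horizontal axis, points with SE), for the bound fraction (circles) and the unbound pools (squares), filled where adjusted p was under 0.05. The 2 filled points are Tmem119 in the bound fraction, at 0.99 for waking minus sleep and -0.98 for deprivation minus waking.

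In the unbound fraction, with 2 pools per state, limma called 0 of the 9 genes in any of the 3 comparisons, and 1, 1 and 4 of them had an unadjusted p under 0.05 for waking minus sleep, deprivation minus sleep and deprivation minus waking. Over all genes 6.32%, 1.87% and 0.759% passed in the same order, and 5891, 4610 and 3818 of the 18193 had an unadjusted p under 0.05. C1qc came nearest in waking against sleep, at 6.42 and 6.94 in the waking pools and 5.36 and 5.84 in the sleep pools (0.78 ± 0.28, adjusted p = 0.0673). On the levels as deposited, the waking pools lay wholly above the sleep pools for 5 of the 9 genes (Cx3cr1, Tmem119, C1qa, C1qb and C1qc), where 55.5% of all genes did so. For C1qa the nearest pools were almost tied, at 6.6137 in waking and 6.6133 in sleep. Relative to the median gene the C1qa difference was -0.16, which did not pass.

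After deprivation, Trem2 was at 5.49 and 5.15 in the deprived pools and 5.84 and 6.63 in the sleep pools (-1.10 ± 0.29, adjusted p = 0.127), below them without overlap, as 15.6% of all genes were. Tmem119 was at 6.59 and 6.22 in the deprived and 5.69 and 6.10 in the sleep pools (0.33 ± 0.22, adjusted p = 0.221), above them without overlap, as 42.9% of all genes were. Against waking, the deprived pools lay wholly below the waking pools for 5 of the 9 genes (Cx3cr1, P2ry12, C1qb, C1qc and Trem2), and 36.3% of all genes did so. The largest of these gaps was that of Cx3cr1, at 5.97 and 6.51 in deprived and 7.16 and 7.69 in waking pools (-1.06 ± 0.30, adjusted p = 0.106). Of the other microglial genes, 1 of 27 rose with waking (Sall1, a transcription factor that maintains microglial identity, at 7.75 in waking and 6.68 in sleep, 0.77 ± 0.15, adjusted p = 0.0321), 1 fell after deprivation (P2ry6, at 4.26 in deprivation and 6.43 in sleep, -2.34 ± 0.31, adjusted p = 0.0409), and 0 passed between deprivation and waking. In that last comparison 10 of the 27 had an unadjusted p under 0.05, as 3818 of all 18193 genes did. Csf1, the ligand of Csf1r, was at 8.55 in waking and 8.56 in deprivation, against 6.85 in sleep (1.40 ± 0.29, adjusted p = 0.0388, and 1.53 ± 0.29, adjusted p = 0.0492). With any 1 of the pools compared left out, no gene of the 18193 passed in the unbound state comparisons.

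The difference between fractions in a state effect was tested directly as an interaction. For the effect of waking, 0 of the 9 genes passed by limma, against 5.6% of all genes. An unadjusted p under 0.05 was found for 0 of the 9 and for 3318 of all 18193 genes. Tmem119, which passed in the bound fraction and not in the unbound one, had an interaction of 0.75 ± 0.48 (adjusted p = 0.621), so its effect was not shown to differ between the fractions. For the effect of deprivation, Trem2 passed, with a value of 1.28 ± 0.33 (adjusted p = 0.0343), while 4.89% of all genes passed and 2.91% as higher. Trem2 in the bound arrays was at 6.29, 6.56 and 6.66 in deprivation and 5.83, 6.08 and 6.69 in sleep (lowest, median, highest), and the pools are those given above (0.18 in the bound arrays and -1.10 in the pools). The dimmer probe set of Trem2 gave -0.37 ± 0.24 (adjusted p = 0.382), with the opposite sign. Of the other microglial genes, 1 of 27 passed for waking, as higher, against 5.6% of all genes. For deprivation, 2 of the 27 passed as higher and 1 as lower, against 4.89% of all genes in either direction. P2ry6 had interactions of 2.81 ± 0.61 for waking (adjusted p = 0.0140) and 3.52 ± 0.61 for deprivation (adjusted p = 0.00157).

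Among the bound arrays the 9 genes varied together only in part. Correlations of their deviations from the group means over the 18 arrays ran from -0.44 to 0.68 over the 36 pairs, with a median of 0.18, and 26 pairs were above 0 and 5 above 0.5. These arrays share a pull-down, a chip type and a normalisation, and the correlations are given as a description. Tmem119 went with C1qb (r = 0.68, rho = 0.69) and C1qc (r = 0.66, rho = 0.71), Csf1r with Aif1 (r = 0.58, rho = 0.43), P2ry12 with C1qa (r = 0.53, rho = 0.42) and C1qb with C1qc (r = 0.51, rho = 0.54). Without the 2 arrays farthest from the median of the first gene these became 0.55, 0.60, 0.26, 0.36 and 0.32. The lowest value was that of Cx3cr1 and Aif1 (r = -0.44, rho = -0.49). The correlation of a gene with the mean of the other 8 was highest for Tmem119 (0.69) and C1qb (0.65) and 0.00 for Cx3cr1.

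Part of this variation followed the numbering of the animals. In the bound arrays, 7 of the 9 genes were lower in animals 4 to 6 than in animals 1 to 3, by between -0.93 for C1qc (6.75 in animals 4 to 6 and 7.67 in animals 1 to 3) and -0.13 for P2ry12, and Csf1r (0.27) and Aif1 (0.24) were higher. Taken within the 2 sets of animals, the median correlation of the 36 pairs was 0.05, that of Tmem119 and C1qb 0.75, that of Tmem119 and C1qc 0.33, that of Csf1r and Aif1 0.56, that of P2ry12 and C1qa 0.52 and that of C1qb and C1qc 0.23. The mean of the 27 other microglial genes correlated with the mean of the 9 at 0.48 over the 18 arrays and at 0.17 within the sets. The 10 genes whose deviations were most like the mean of the 9, over the same 18 arrays, were Adamts16 (r = 0.87), Zfand2a (0.86), Ucp3 (0.86), Hacd2 (0.86), Efhd1 (0.83), Rbl2 (0.83), Endog (0.83), Spout1 (0.83), Dok7 (0.82) and Klf4 (0.82), none of them in the microglial lists used here. They were picked as the highest values over the named genes outside the 9. Within the sets of animals their r ran from 0.64 (Spout1) to 0.84 (Adamts16).

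**Figure D4:**
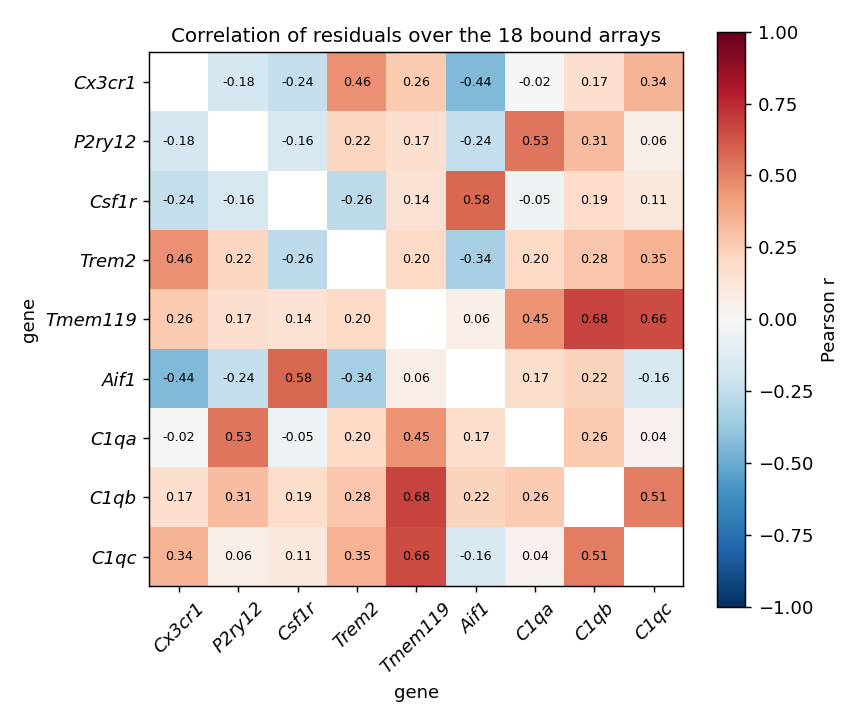
Pearson r of the deviations from the group means over the 18 bound arrays for each of the 36 pairs of genes (both axes list the genes, colour and number give r). The highest value is that of Tmem119 and C1qb (0.68) and the lowest that of Cx3cr1 and Aif1 (-0.44).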

How the data were processed

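RNA from bound and unbound fractions of mouse cortex was measured on Affymetrix mouse genome arrays. The authors deposited log2 RMA values for 45101 probe sets on 24 arrays, per the submitters' processing notes and the values; the version and the arrays normalised together are not given in the sources used here. Without the 64 controls, 34945 probe sets had 1 gene symbol, 932 several and 9160 none, and the last 2 kinds were not tested. Each of the 18193 genes was represented by its probe set with the highest mean.

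Linear models (limma 3.58.1, R 4.3.3, empirical Bayes, Benjamini-Hochberg over all genes, threshold 0.05) used the 18 bound, the 6 unbound or all 24 arrays, without a block. The script was tested on simulated data. Replicates are separate animals or pools. Figures used matplotlib 3.10.9 and numpy 2.4.6.

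Residuals of same-numbered bound arrays of different states correlated at 0.27 to 0.53 over 18 pairs. These numbers were therefore taken to pair the arrays in an alternative fit, although the labels give no shared litter or day. The main fits leave this pairing out. Unbound pools gave 0.00 to 0.03 over 6 pairs. Each pool holds the animals whose bound fraction was measured, which pairs the fractions.

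The 9 genes, the lists and the tests were chosen with earlier results of these data known. Named from each list were up to 4 genes past the threshold with the largest difference per comparison, and where none passed the 2 with the highest level, and by likeness the 10 genes with the highest correlation. The number of arrays limits the precision. The alternatives comprised a block for replicate number or pool, another choice of probe set, normalisation, filter, spread or fold limit, and each array left out. Animals 1 to 3 and 4 to 6 as a block was added after seeing the data.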

Additional observations from a re-analysis of the deposited data

Results flagged for a closer look

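The effect of sleep deprivation on Trem2 differed between the fractions by the interaction test (1.28 ± 0.33 on the log2 scale, relative to the median gene, adjusted p = 0.0343 by limma), which is what singled it out. Trem2 was higher by 0.18 ± 0.16 after deprivation in the bound fraction, with 6 of 6 deprived arrays above the sleep mean, and lower by -1.10 ± 0.29 in the unbound pools, with neither difference past the threshold alone. The second Trem2 probe set gave -0.37 ± 0.24 (adjusted p = 0.382), and without the second sleep pool the value was 0.86 (adjusted p = 0.311). The cause was not tested. Of the 27 bound groups of 6 arrays examined (9 genes in 3 states), none held an array that stood apart by Dixon's criterion.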

How the results depend on the processing

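Of 1752 values of the 9 genes recomputed under the alternatives, 1717 kept their direction where called and their side of the threshold, 26 lost it, 9 passed newly and 0 reversed. For bound minus unbound, Aif1, Csf1r and C1qc passed under all 34 alternatives, C1qb was lost in 2, P2ry12 in 5, Trem2 in 4 and Cx3cr1 in 1 (against a fold of 1.5), while Tmem119 passed in 6 and C1qa in 2. Tmem119 was lost in 1 of 23 alternatives for bound waking minus sleep (against a fold of 1.5) and in 5 of 23 for deprivation minus waking, and the Trem2 interaction in 8 of 25, among them the mean of its probe sets (0.44, adjusted p = 0.319). C1qc in unbound waking minus sleep passed in 1 of 14, with an intensity trend (adjusted p = 0.0496).

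The counts of all genes past the threshold moved more. For bound minus unbound (12627 genes), every probe set tested gave 23793 and a fold of 1.5 gave 5855. With the replicate block the counts became 3064 for bound waking minus sleep (2039 without it), 1913 for bound deprivation minus waking (1244) and 0 in each unbound comparison (5829, 4590 and 3824 genes at an unadjusted p under 0.05 for waking minus sleep, deprivation minus sleep and deprivation minus waking), and the block changed no state or interaction call of the 9 genes. Between the fractions it added Tmem119, and with the 6 pairs it also lost P2ry12 and Trem2. With animals 1 to 3 and 4 to 6 as a block, added after seeing the data, the bound counts were 3385 for waking minus sleep, 4102 for deprivation minus sleep (2597) and 2164 for deprivation minus waking. Leaving out genes below the median level gave 142, 334 and 76 in the bound comparisons, 130, 0 and 0 in the unbound ones (2637 and 1975 unadjusted for the last 2), and 37 and 22 for the interactions of waking (1018) and deprivation (890). Every probe set gave 4087, 5063 and 2606 in the bound, 2119, 744 and 319 in the unbound comparisons and 2145 and 1810 for the interactions. A fold of 1.5 gave 24, 74 and 10 in the bound, 0, 0 and 0 in the unbound comparisons (1024, 733 and 634 unadjusted) and 40 and 60 for the interactions. In the unbound comparisons (1149, 341 and 138), the mean of probe sets gave 2031, 568 and 210, repeated quantile normalisation 0, 126 and 2 (3724 unadjusted for the first), centred arrays 0, 153 and 11 (3671 unadjusted for the first) and an intensity trend 2935, 1259 and 622. The spread from all 24 arrays gave 999 for unbound deprivation minus sleep and 800 for deprivation minus waking, and array weights 4 for unbound deprivation minus waking and 1822 and 1546 for the interactions. Repeated quantile normalisation also changed the split of higher and lower calls, to 1030 and 746 for bound deprivation minus sleep (2230 and 367), 60 and 66 for unbound deprivation minus sleep (259 and 82) and 517 and 449 for the waking interaction (343 and 675).

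With 1 array left out, counts ran from 11899 to 12706 for bound minus unbound, from 1706 to 1846, 2231 to 2475 and 999 to 1148 in the bound comparisons, from 502 to 1005 and 447 to 867 for the interactions, and were 0 in the unbound comparisons (2915 to 4640 unadjusted), where 1 lone pool was then assumed to vary like the others. The causes of these moves were not tested. The 2 pools per state limit the unbound comparisons.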
